A study of Mus musculus with 6 samples.

Results

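Sphingolipid synthesis is described here through 10 genes, led by Sptssb, in sorted colonic epithelium of the mouse. The genes are Sptssb, Sptssa, Sptlc1 and Sptlc2 of serine palmitoyltransferase, the ceramide synthases Cers5 and Cers6, the desaturases Degs1 and Degs2, the glucosylceramide synthase Ugcg and the neutral ceramidase Asah2. Each of the 10 was represented by a probe set that names no other gene, and each had exactly 1 such probe set, out of 19938 genes represented in that way. The set was chosen by biochemical pathway around Sptssb, which was itself selected on its large difference between the groups on these same arrays. The differences of its members are therefore given as descriptions; where members are counted against a threshold, the count supports nothing.

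Transcript levels were read on 6 Affymetrix arrays, each from its own sample of cells sorted for EpCAM, a surface protein of epithelia, and against CD45, the leukocyte antigen. The mice were wild-type BALB/c males, 6 weeks old, deprived of food for 36 h and then fed again for 24 h, and the 3 samples of the re-fed group had no further treatment. The 3 samples of the antibiotics group came from mice that were also given antibiotics during the 24 h of re-feeding; the drugs are not named in the sources used here. The samples of a group are labelled biological replicates, with the number of mice behind each not given. There was no group that was fasted and not re-fed, and none that received antibiotics while fed as usual, so the comparison concerns re-fed colon with and without antibiotics.

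Values are log2 expression, on which a step of 1 is a doubling, and every difference is antibiotics minus re-fed. Genes were tested where their mean over the 6 arrays reached 5.81, the 40th percentile of probe sets with a named gene. This left 12071 genes, among them all 10 members. The deposited array medians ran from 5.63 to 6.17, and the arrays were brought to 1 distribution before any comparison. Antibiotics replicate 3, which had the lowest median and held the lowest Sptssb value, stood apart with 10829 distinct values, against 34568 to 34596 on each of the other arrays; without it the Sptssb difference was -1.69. A group of 4 arrays, replicates 2 and 3 of the re-fed and replicates 1 and 2 of the antibiotics samples, had 372 to 435 exact values in common per pair, while pairs with any other array had 42 to 198. They are called the common run, but no label names such a run, and the group was inferred from these shared values alone. Whether the 4 arrays were normalised together was not tested. Re-fed replicate 1 had 154 to 198 values in common with each of them. Antibiotics replicate 3, with its fewer distinct values, had 42 to 67 in common with any array. Besides the results from all 6 arrays, differences computed from these 4 alone are reported. Epcam stood at 12.16 ± 0.11 (SD, n = 3) in the re-fed group and 12.12 ± 0.06 in the antibiotics group, and Ptprc, which encodes CD45, lay below the floor at 5.44 ± 0.11 and 5.40 ± 0.12.

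Sphingolipids are built on a long-chain base that serine palmitoyltransferase makes in the endoplasmic reticulum from serine and a fatty acyl-CoA. The base is reduced, joined to a fatty acid by a ceramide synthase and then desaturated to ceramide or hydroxylated to phytoceramide. Ceramide goes on to sphingomyelin and to glycosphingolipids, which are abundant in the apical membrane of gut epithelium. Ceramidases take ceramide apart again, and one of them works on the surface of the gut brush border.

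Sptssb was far lower in the antibiotics group than in the re-fed group, and Sptssa and Sptlc2 were lower by smaller amounts, while Sptlc1 lay nearest to 0 of the 4. Sptlc1 and Sptlc2 encode the large subunits whose pairing makes the enzyme, and Sptssa and Sptssb encode small subunits that raise its activity and shape its choice of acyl-CoA. Sptssb (probe set 10498653) stood at 8.36, 8.65 and 9.52 in re-fed replicates 1 to 3 and at 7.04, 7.28 and 6.64 in antibiotics replicates 1 to 3. Every re-fed array was above every antibiotics array, and the gap between the nearest arrays of the groups was 1.08. The means were 8.85 ± 0.60 and 6.98 ± 0.32 (SD, n = 3 each), a difference of -1.86 (moderated SE 0.27), which is a 3.63-fold lower level with antibiotics. The difference was -1.93 (SE 0.25) in the common run.

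Leaving out any 1 array left the Sptssb difference between -2.10, without re-fed replicate 1, and -1.52, without re-fed replicate 3, the array where the gene was highest. Sptssb also varied widely among samples of the same group. Its pooled within-group SD of 0.48 lay at the 99.1 percentile of the 12071 genes. The SD is computed within groups, but Sptssb was selected on its large difference, so this percentile is a description alone. By size of difference, Sptssb held rank 4 among all genes counted from the lowest. The 3 genes ahead of it, named because they hold those ranks, were the pancreatic enzyme genes 2210010C04Rik (a trypsinogen gene), Ctrb1 and Cpa1, which were high in re-fed replicates 1 and 2 alone. In re-fed replicate 3 Ctrb1 stood at 6.15, against 5.92 to 6.12 in the antibiotics group. Any relation of these genes to the Sptssb difference was not tested.

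Sptssa (probe set 10400321) stood at 6.81, 6.49 and 6.61 in re-fed replicates 1 to 3 and at 6.29, 6.21 and 6.29 in antibiotics replicates 1 to 3. The groups did not overlap, with 0.20 between the nearest arrays. The means were 6.64 ± 0.16 and 6.26 ± 0.05, a difference of -0.38 (SE 0.11) and of -0.30 in the common run. Thus the paralog of Sptssb had the same sign in these arrays, at a 1.30-fold lower level.

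Sptlc2 (probe set 10401781), which carries the catalytic lysine of the enzyme, stood at 11.61, 11.34 and 11.46 in the re-fed arrays and at 10.99, 11.14 and 11.04 in the antibiotics arrays. Again no antibiotics array reached a re-fed one, with a gap of 0.20. The difference was -0.41 (SE 0.11), a 1.33-fold lower level, and -0.34 in the common run. Sptlc1 (probe set 10409294), the partner of Sptlc2, stood at 8.79, 8.63 and 8.65 without and 8.63, 8.55 and 8.41 with antibiotics. Its groups were separate by 0.0084 alone. Its difference of -0.16 (SE 0.11) moved with the processing: it was -0.05 in the common run, -0.35 with the deposited scaling and -0.31 with median scaling, where Sptssa stood at -0.41 and -0.37. Sptlc3, which encodes an alternative to Sptlc2, lay below the floor, at 4.56 to 5.21 in the re-fed arrays and 4.45 to 4.85 in the antibiotics arrays.

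**Figure D1:**
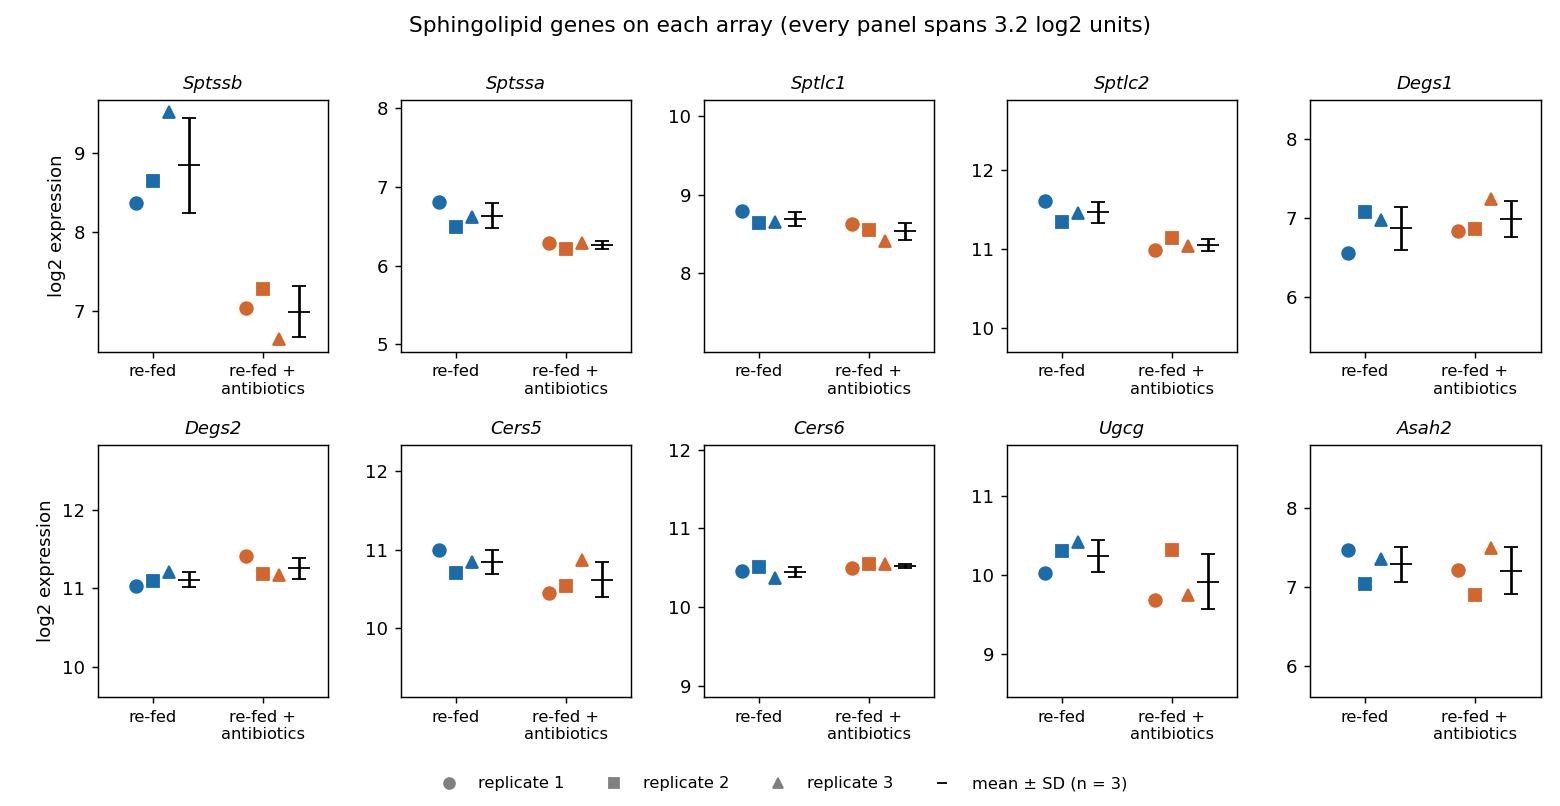
Log2 expression of the 10 genes on each array, with re-fed samples in blue and antibiotics samples in orange, a marker shape per replicate number and the mean ± SD (n = 3) beside each group; every panel spans the same number of log2 units. Sptssb has the widest gap between its groups, 1.08, while the groups overlap in both desaturases, both ceramide synthases, Ugcg and Asah2.

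The stretches upstream of the 4 serine palmitoyltransferase genes are shown because these genes encode the subunits of the enzyme to which Sptssb belongs. All 4 were lower in the antibiotics group, though Sptlc1 by -0.16 over 6 arrays and by -0.05 in the common run. The contrast was known when the windows were picked, so letters that they share support nothing. They are the 250 bases before the annotated start, on the minus strand in all 4 genes, from RefSeq on the mouse build GRCm38.p6: chr3:69859895-69860144 for Sptssb, chr12:54656573-54656822 for Sptssa, chr13:53377362-53377611 for Sptlc1 and chr12:87388356-87388605 for Sptlc2. Capitals mark matches, on either strand, to CCAAT (the CCAAT box) and GGGCGG (the GC box).
Sptssb: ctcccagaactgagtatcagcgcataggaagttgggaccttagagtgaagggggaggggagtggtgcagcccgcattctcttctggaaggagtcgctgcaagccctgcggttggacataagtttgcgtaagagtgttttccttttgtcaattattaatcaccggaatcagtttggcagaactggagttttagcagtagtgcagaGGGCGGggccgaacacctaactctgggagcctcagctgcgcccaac
Sptssa: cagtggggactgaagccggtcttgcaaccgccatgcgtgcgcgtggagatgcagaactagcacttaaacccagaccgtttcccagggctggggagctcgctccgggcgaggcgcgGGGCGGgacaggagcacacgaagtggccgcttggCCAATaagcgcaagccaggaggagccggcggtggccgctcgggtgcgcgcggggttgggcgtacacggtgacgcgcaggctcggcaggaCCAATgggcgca
Sptlc1: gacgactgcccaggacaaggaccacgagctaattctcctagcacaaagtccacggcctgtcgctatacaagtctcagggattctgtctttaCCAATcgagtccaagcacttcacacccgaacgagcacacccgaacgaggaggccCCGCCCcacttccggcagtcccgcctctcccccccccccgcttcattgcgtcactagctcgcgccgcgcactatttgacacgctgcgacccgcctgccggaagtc
Sptlc2: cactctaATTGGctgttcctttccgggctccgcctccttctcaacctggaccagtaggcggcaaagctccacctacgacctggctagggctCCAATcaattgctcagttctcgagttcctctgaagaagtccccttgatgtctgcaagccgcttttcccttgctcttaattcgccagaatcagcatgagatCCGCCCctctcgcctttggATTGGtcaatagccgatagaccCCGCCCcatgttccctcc

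Of the 5 motifs searched on both strands, where matches may overlap, the GC box occurred in each of these 4 windows and in 32.7% of the 32851 upstream windows of that length in the table. The CCAAT box was found in Sptssa, Sptlc1 and Sptlc2 and not in Sptssb, and in 33.8% of all windows. Sptlc2 held 3 CCAAT boxes and 2 GC boxes, and Sptssb held 1 GC box, which began 46 bases before the start. TATAAA (the TATA box, 12.4% of all windows), CACGTG (the E-box, 6.02%) and TTTATG (the core of a CDX site, 10.8%) were absent from these 4 windows. The ratio of observed to expected CpG was 0.524 for Sptssb and 0.625 for Sptlc2, against 0.976 for Sptssa and 1.02 for Sptlc1, with a median of 0.373 over all windows. Sptssb and Sptlc2 thus had the lower CpG ratios of the 4. All 10 members were matched to a window by symbol, and the E-box was found in those of Degs1 and Cers6. The GC box was also found in the windows of Degs2, Cers5 and Ugcg, and the CCAAT box in that of Cers6. Neither box was thus particular to the serine palmitoyltransferase genes among the members. These matches are a description of the letters.

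Of the 2 ceramide synthases among the members, Cers5 was lower by a small amount, with groups that overlapped, and Cers6 differed little. Cers5 (probe set 10432527), which favours palmitoyl-CoA as its acyl donor, stood at 11.00, 10.70 and 10.84 in the re-fed arrays and at 10.45, 10.54 and 10.87 in the antibiotics arrays. Antibiotics replicate 3 lay among the re-fed arrays, and the difference was -0.23 (SE 0.14), with -0.27 in the common run. Cers6 (probe set 10472501), of like preference, stood at 10.46, 10.50 and 10.37 without and 10.50, 10.54 and 10.54 with antibiotics. Its difference was 0.08 (SE 0.10) and changed sign with the deposited scaling (-0.10) and with scaling of each array to a common median (-0.06). The median of all genes was -0.118 and -0.08 under these scalings, and Cers6 lay 0.015 above it with either. Cers6 was among the steadiest genes, with a within-group SD of 0.052 at the 3.12 percentile of all genes.

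The desaturase genes did not separate the groups. Degs1 (probe set 10360789), which introduces the double bond that turns dihydroceramide into ceramide, stood at 6.56, 7.07 and 6.98 in the re-fed arrays and 6.84, 6.86 and 7.25 in the antibiotics arrays. Its lowest array was re-fed replicate 1 and its highest antibiotics replicate 3, the arrays outside the common run. The difference was accordingly 0.11 (SE 0.16) over 6 arrays and -0.17 (SE 0.10) within the common run. Degs2 (probe set 10402575), whose product also hydroxylates the base to form phytoceramide, stood at 11.03, 11.09 and 11.21 without and 11.41, 11.18 and 11.17 with antibiotics. Its difference of 0.14 (SE 0.11) came to -0.00094 with the deposited scaling, where the median of all genes was -0.118.

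Ugcg, which commits ceramide to glycosphingolipids, was lower on 2 antibiotics arrays and level with the re-fed arrays on the other. Ugcg (probe set 10505187) stood at 10.02, 10.30 and 10.42 in the re-fed arrays and at 9.68, 10.31 and 9.75 in the antibiotics arrays. The difference was -0.33 (SE 0.18), with -0.36 in the common run, and lay between -0.53 and -0.21 when any 1 array was left out. Asah2 (probe set 10467041), the ceramidase of the brush border, stood at 7.47, 7.04 and 7.36 without and 7.22, 6.90 and 7.50 with antibiotics. Its groups overlapped, and the difference was -0.08 (SE 0.17).

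**Figure D2:**
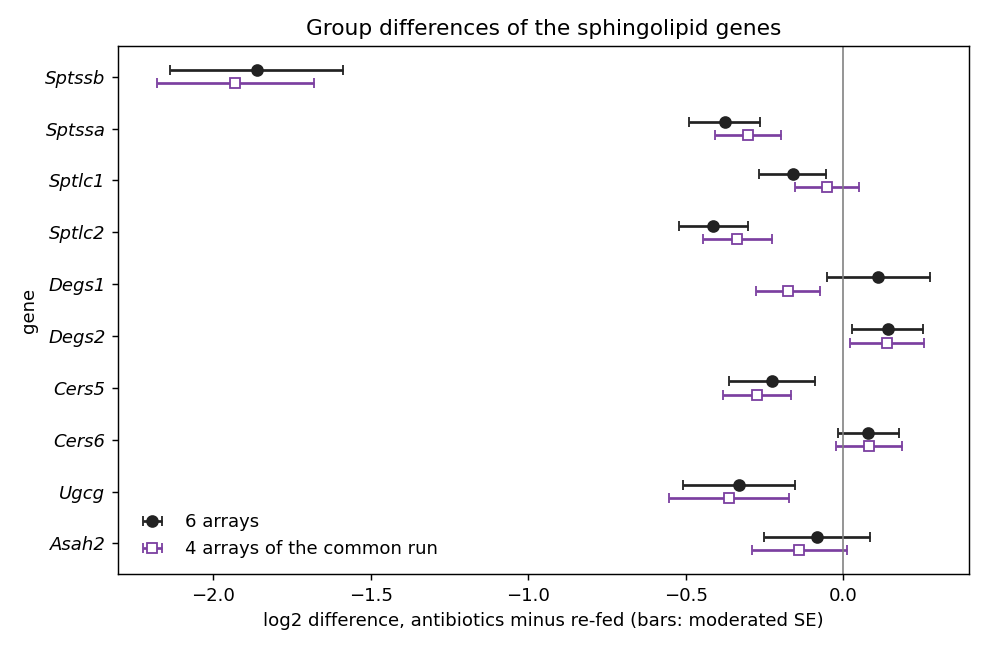
Log2 difference, antibiotics minus re-fed, of each gene over all 6 arrays (filled circles) and over the 4 arrays of the common run (open squares); bars are the moderated SE. Sptssb lies at -1.86 and -1.93, the other 9 genes lie between -0.41 and 0.14 over 6 arrays, and Degs1 alone changes sign between both sets of arrays.

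Across the 10 genes, 7 differences were below 0 and 3 above. In limma's test with Benjamini-Hochberg adjustment over all 12071 genes, 0 of the 10 passed at 0.05, where 0.058% of all genes passed. At an unadjusted p under 0.05 there were 3, Sptssb, Sptssa and Sptlc2, all lower, against 12.6% of all genes in either direction and 7.32% in that one. The groups did not overlap in 4 genes, all lower with antibiotics, where 10.7% of all genes were separate in that direction and 19.6% in either. Sptssb passed under 8 of the 16 alternative settings. These were the common run (where 0.447% of all genes passed), the deposited scaling (0.373%), the deposited scaling in the common run (0.621%), median scaling (0.514%), the floor at the 60th percentile (0.545%), a trend in the variance prior (0.356%), the arrays without re-fed replicate 3 (0.0911%) and array weights. With array weights Sptlc2 and Ugcg passed too, all 3 lower, where 5.53% of all genes passed in that direction; no other member passed under any of the 16. These counts describe the genes and carry no support, since the contrast was known when they were chosen. The median difference of the 10 was -0.19, and over all genes tested it was 0.0033.

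**Figure D3:**
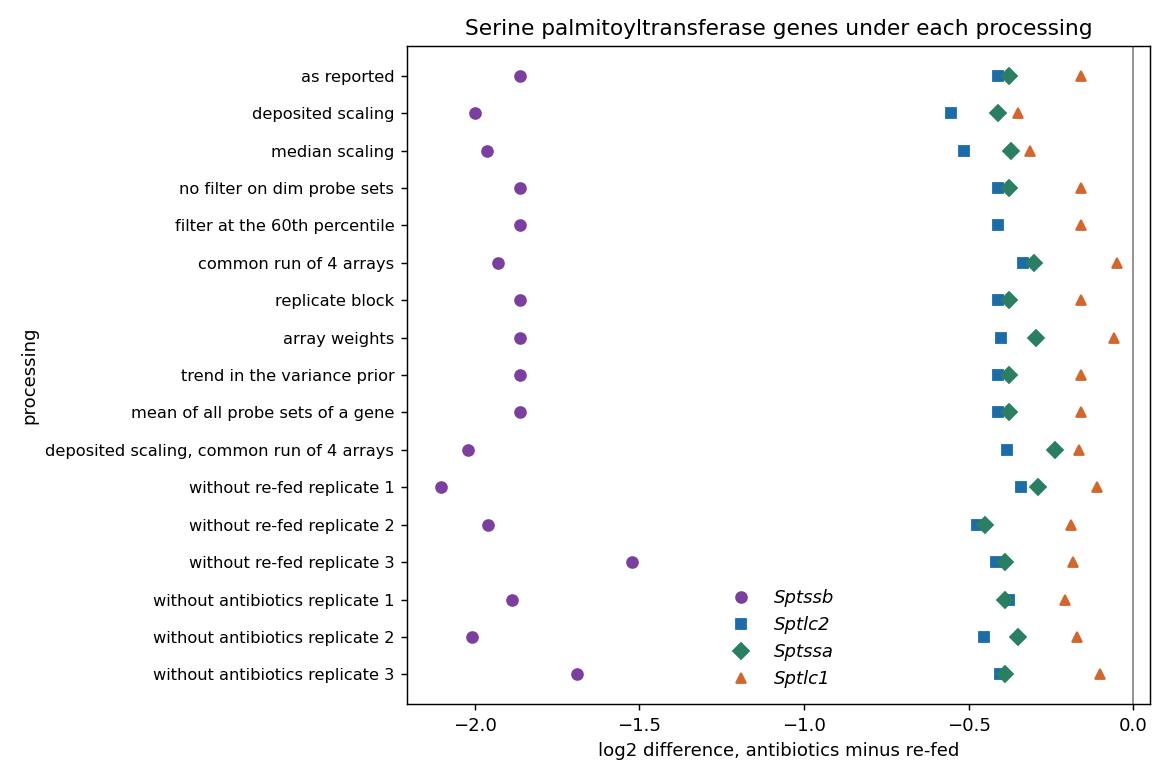
Log2 difference, antibiotics minus re-fed, of the 4 serine palmitoyltransferase genes under each processing tried, 1 line per processing; Sptssa has no value with the filter at the 60th percentile. Sptssb stays between -2.10 and -1.52, and Sptlc2 between -0.55 and -0.34, in every one of them.

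Of the other sphingolipid genes, 76 were listed by role, 73 had a probe set of their own and 60 lay above the floor. Of these 60, 0 passed limma's test over all genes (0.058% of all genes did). At an unadjusted p under 0.05 there were 10, 9 lower and 1 higher, or 16.7% against 12.6% of all genes. Differences below 0 were found in 36 of the 60, where 49.3% of all genes were below 0. That count ran from 29 of 60 with array weights, and 30 without re-fed replicate 1, to 48 with the deposited and with median scaling, where the median of all genes moved to -0.118 and -0.08. With array weights, which ranged from 0.33 for antibiotics replicate 3 to 3.82 for antibiotics replicate 1, 9 of the 60 passed limma's test, all lower (Fa2h, Sgms1, Samd8, B4galt6, A4galt, Asah1, Smpdl3b, Gla and Sgpl1), where 5.53% of all genes passed in that direction. With scaling of each array to a common median 1 of the 60, Gla, passed, where 0.514% of all genes did. In the order of the pathway, the values were as follows.

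Among 8 genes of the steps from base to ceramide, 5 lay below 0 and 3 above. Fa2h, which hydroxylates the fatty acid of ceramide, stood at 11.19, 11.17 and 11.65 in the re-fed arrays and at 10.73, 10.64 and 10.58 in the antibiotics arrays. Every antibiotics array was below every re-fed one, and as with Sptssb the highest was re-fed replicate 3. The difference was -0.69 (SE 0.14, limma adjusted p = 0.119), a 1.61-fold lower level that did not pass, and -0.73 in the common run. Cers2, the synthase of very-long-chain ceramides, differed by 0.26 (SE 0.11, limma adjusted p = 0.363), with groups that did not overlap.

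The reductase Kdsr, the step after serine palmitoyltransferase, differed by -0.08 (SE 0.10) and the synthase Cers4 by -0.09 (SE 0.11). Of the ORMDL proteins, which hold serine palmitoyltransferase in check, Ormdl1 differed by -0.22 (SE 0.12, limma adjusted p = 0.459) and Ormdl3 by 0.14 (SE 0.11, limma adjusted p = 0.629), both with groups that overlapped. Ormdl2, named after its values were seen, differed by 0.12 (SE 0.09, limma adjusted p = 0.637), with groups that did not overlap. Among 9 genes of fatty acid elongation, 6 lay below 0. Elovl6, which lengthens palmitate, differed by -0.31 (SE 0.11, limma adjusted p = 0.295), Elovl5 by -0.23 (SE 0.20) and Hacd1, a dehydratase of the elongation cycle, by 0.10 (SE 0.11).

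Of 14 genes for the synthesis and transfer of sphingomyelin, glycolipids and ceramide phosphate, 10 lay below 0, where 49.3% of all genes did, and 8 in the common run; 0 passed. Samd8, which makes ceramide phosphoethanolamine, stood at 9.11, 9.08 and 9.20 without and 8.80, 8.74 and 8.53 with antibiotics (-0.44, SE 0.11, limma adjusted p = 0.185). The sphingomyelin synthase Sgms1 differed by -0.39 (SE 0.11, limma adjusted p = 0.231) and by -0.47 in the common run. A4galt, which makes the glycolipid Gb3, differed by -0.30 (SE 0.10, limma adjusted p = 0.293). Over these 14 genes the groups did not overlap in 4, with 3 lower and 1 higher, or 28.6% against 19.6% of all genes.

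Among 19 genes of breakdown and salvage, 11 lay below 0. Gla, the lysosomal galactosidase that degrades Gb3, stood at 8.67, 8.36 and 8.55 in the re-fed arrays and at 8.01, 8.08 and 7.61 in the antibiotics arrays (-0.63, SE 0.15, limma adjusted p = 0.161). The difference was -0.41 within the common run, which leaves out both its highest array, re-fed replicate 1, and its lowest, antibiotics replicate 3; it was -0.55 without the first alone and -0.49 without the second alone. Sgpl1, the lyase that removes sphingosine 1-phosphate for good, differed by -0.39 (SE 0.11, limma adjusted p = 0.208), and Smpdl3b, a membrane-anchored relative of acid sphingomyelinase, by -0.33 (SE 0.10, limma adjusted p = 0.238). Among 10 genes of sphingosine 1-phosphate, 6 lay above 0 and 4 below, and none had an unadjusted p under 0.05 in that fit. The phosphatases Plpp1, Plpp3 and Sgpp1 differed by -0.23 (SE 0.13), -0.19 (SE 0.12) and 0.17 (SE 0.11).

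**Figure D4:**
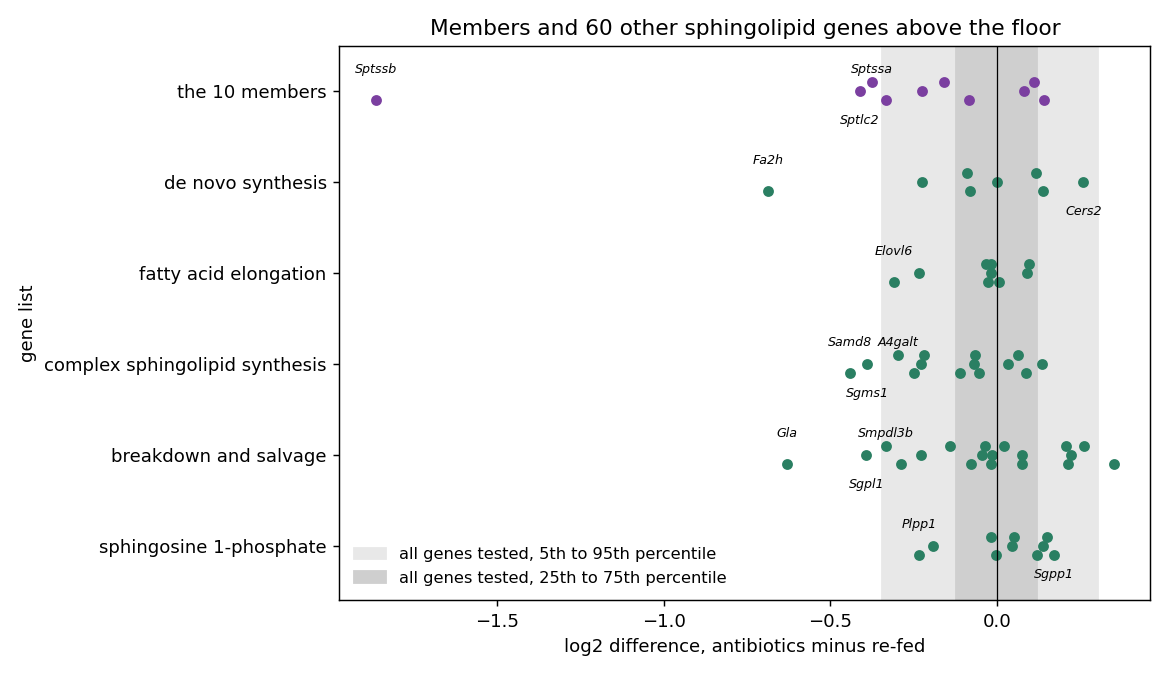
Log2 difference, antibiotics minus re-fed, of the 10 members (purple) and of 60 other sphingolipid genes above the floor (green), 1 point per gene and 1 line per list; grey bands hold the middle of all genes tested, from -0.12 to 0.12 (25th to 75th percentile) and from -0.35 to 0.30 (5th to 95th percentile). Sptssb at -1.86, Fa2h at -0.69 and Gla at -0.63 lie farthest to the left.

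The genes whose profile over the 6 arrays was nearest to that of Sptssb were Retnlb, a goblet cell protein, Cyp2c55, a cytochrome P450, Mgll, the monoacylglycerol lipase, Dbp, a clock-driven transcription factor, and Akr1b8, an aldo-keto reductase. Likeness was measured as the root mean square distance between values centred on each gene's mean. It was 0.354 for Retnlb, 0.356 for Cyp2c55, 0.402 for Mgll, 0.435 for Dbp and 0.439 for Akr1b8, where the profile of Sptssb itself has a root mean square of 1.01. Cyp2c55 stood at 11.89, 12.32 and 12.42 in the re-fed arrays and 10.99, 11.16 and 10.48 in the antibiotics arrays. Mgll stood at 7.63, 7.87 and 8.47 and at 7.16, 7.12 and 6.29. All 5 shared with Sptssb the array that was highest, re-fed replicate 3. Cyp2c55 and Mgll also shared the one that was lowest, antibiotics replicate 3. Retnlb was lowest in antibiotics replicate 2, and Dbp and Akr1b8 in antibiotics replicate 1. The genes were picked for likeness over these same arrays, so a shared order of arrays supports nothing. Nearest to the mirror image were Slc7a9, an amino acid transporter subunit (0.518), the glutathione peroxidase Gpx2 (0.546), the oxidase Nox1 (0.554), the aldo-keto reductase Akr1c19 (0.575) and the tight junction protein Cldn8 (0.593).

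**Figure D5:**
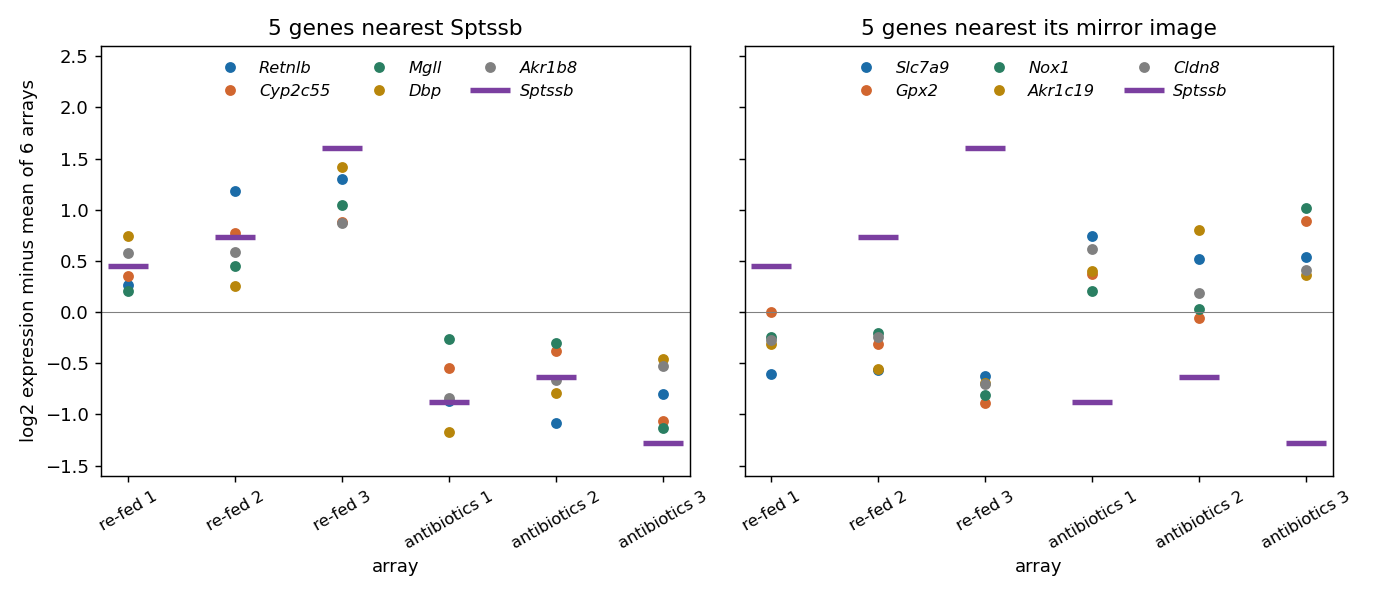
Log2 expression minus each gene's mean of 6 arrays, by array, for Sptssb (purple bars) with the 5 genes nearest to it (left) and the 5 nearest its mirror image (right). Sptssb is above its mean on the 3 re-fed arrays and below it on the 3 antibiotics arrays, with a root mean square of 1.01.

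In bulk samples like these, fewer cells of a type and less RNA per cell cannot be told apart. Markers of all epithelial cells lay lower with antibiotics in 8 of 8 genes, with a median of -0.11, and their summed level (log2 of the summed linear values) was 15.44 to 15.50 in the re-fed arrays and 15.32 to 15.38 in the antibiotics arrays. Absorptive colonocyte markers lay lower in 7 of 10, with summed levels of 15.98 to 16.15 and 15.81 to 16.00. Goblet cell markers lay lower in 7 of 8, with summed levels of 15.57 to 15.76 and 15.41 to 15.62. Over all genes tested 49.3% lay lower. In limma's test 0 markers of these lists passed, and at an unadjusted p under 0.05 there were 2 of 8 for all epithelial cells, 4 of 10 for absorptive colonocytes and 2 of 8 for goblet cells, against 12.6% of all genes. Their part in the lower level of Sptssb was not tested.

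Markers of leukocytes were near the background of the arrays. Of T cell and intraepithelial lymphocyte markers 1 of 10 lay above the floor, of B and plasma cell markers 1 of 6 and of myeloid markers 1 of 10. Their summed levels were 8.59 to 8.77, 7.66 to 7.87 and 8.89 to 9.24 in the re-fed arrays, and 8.58 to 8.68, 7.88 to 7.89 and 9.08 to 9.27 in the antibiotics arrays. Stromal and endothelial markers, with 5 of 10 above the floor, had summed levels of 9.35 to 9.51 and 9.40 to 9.58. Of the crypt-base markers 5 of 8 lay above the floor (10.56 to 11.11 and 10.66 to 10.94), of the enteroendocrine markers 7 of 8 (10.18 to 10.56 and 9.77 to 10.90), of the tuft cell markers 3 of 7 (8.66 to 9.19 and 8.70 to 8.91), and of the small-intestinal markers 4 of 7 (10.97 to 12.07 and 10.52 to 11.65). Of those above the floor, stromal and endothelial markers lay higher with antibiotics in 4 of 5 and crypt-base markers in 3 of 5. Enteroendocrine markers lay higher in 3 of 7, small-intestinal markers in 2 of 4 and tuft cell markers in 0 of 3. At an unadjusted p under 0.05 in limma's test, the stromal, crypt-base and enteroendocrine lists had 1 marker each. Over all genes 12.6% had such a p. Below the floor were Lgr5, Ascl2 and Olfm4 of the crypt base and Pou2f3 and Il25 of tuft cells.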

How the data were processed

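The authors deposited log2 expression values of 35557 probe sets, made with RMA, as the submitters' processing notes record (per the labels); its version and annotation are not given in the sources. Groups and replicate numbers came from the sample titles. Probe sets that the platform annotation ties to a gene (23410) were quantile-normalised over the 6 arrays, because the deposited medians differ. Of these, 21789 name 1 gene; each of 19938 genes took the probe set with the highest mean, and genes under 5.81 (40th percentile) were left out as dim, which leaves 12071. The antibiotics and re-fed groups were set against each other in R 4.3.3 with limma 3.58.1 (lmFit, eBayes, two-sided, Benjamini-Hochberg, threshold 0.05). The size of fitted differences was checked on simulated data with independent noise and no shared runs of arrays. That check does not bear on the counts of genes that passed. Alternatives changed scaling, floor, weights, variance prior, block, probe sets or arrays. The members and lists were chosen with earlier results of these data known. Named are all members, up to 3 genes per list with the smallest unadjusted p, some genes regardless of value (Sptlc3, Cers2, Cers4, Ormdl3, Kdsr, Sgms1, Sgpl1, Epcam and Ptprc) and the 5 genes nearest Sptssb or its mirror image. The number of arrays limits the precision.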

Additional observations from a re-analysis of the deposited data

How the results depend on the processing

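Sptssb kept its direction under all 16 alternatives, from -2.10 to -1.52, as did Sptssa, Sptlc1, Sptlc2, Cers5 and Ugcg where they were tested. Degs1, Degs2, Cers6 and Asah2, all close to 0, changed sign under at least 1 alternative. For Degs2 and Cers6 this was only with the deposited or median scaling, where the median of all genes was itself below 0. Over all genes the count passing limma's adjusted test, 7 as reported, was 45 with the deposited scaling, 62 with median scaling, 2 with no floor, 43 with the floor at the 60th percentile, 54 in the common run, 1169 with array weights, 43 with a trend in the variance prior and 75 with the deposited scaling in the common run, an alternative chosen after seeing the data. It ran from 0 to 11 when any 1 array was left out; in the fit with 0, without antibiotics replicate 1, 1040 genes had an unadjusted p under 0.05. Of the 60 other sphingolipid genes, 1 passed with median scaling (Gla) and 9 with array weights, and 0 under the rest. The cause of these changes was not tested. Values of small size changed sign for Hacd1, at -0.046 with the deposited and -0.0081 with median scaling. With either, Hacd1 lay 0.072 above the median of all genes. The sign of Epcam changed as well, to 0.048 in the common run and 0.015 there with the deposited scaling. Its difference ran from -0.075 to 0.026 when any 1 array was left out. That of Plpp3 came to 0.0039 in the common run with the deposited scaling. With the replicate number as a block, 7 genes passed, Sptssb differed by -1.86 and 0 of the 60 other genes passed; same-numbered arrays of both groups had correlations of 0.0209, -0.034 and -0.225 in their deviations from the group means, so the numbers were not taken to pair the samples.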

Other observations

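Several pancreatic enzyme genes stood apart on re-fed replicates 1 and 2, a pattern noticed after the values were seen. Cpa1, a carboxypeptidase, stood at 9.20 and 8.83 on these arrays, at 6.03 on re-fed replicate 3 and at 5.92 to 6.13 on the antibiotics arrays. Ctrb1, a chymotrypsinogen, stood at 9.02 and 8.87, then at 6.15 and at 5.92 to 6.12. The carboxypeptidase Cpb1, which lies under the floor on average, stood at 6.78 and 7.77, then at 5.02 and at 4.82 to 5.02. In other genes of this kind the pattern was weaker on re-fed replicate 2. The trypsinogen gene Prss2 stood at 7.17 and 5.94, then at 5.42 and at 5.23 to 5.59, and Try4 at 5.28 and 4.17, then at 4.15 and at 2.97 to 3.83. The difference of Sptssb without re-fed replicate 1 was -2.10 and without re-fed replicate 2 was -1.96. Its relation to the pancreatic genes was not tested.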
